A study of Mus musculus with 18 samples.

Results

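The genes described here encode the potassium, sodium and pacemaker channels of the mouse left ventricle. They were chosen by symbol: a row was taken where the name began with Kcn, with Scn and a digit, or with Hcn and a digit. That rule took 116 of the 24421 gene symbols counted. A symbol was kept as a member where it reached 0.5 CPM (counts per 1000000 gene counts of the library) in at least 3 of the 18 libraries, which left 73 members. Of the other 43 symbols, 7 had no count in any library. Just inside the limit were Kcng4 and Kcnip4, each at or above 0.5 CPM in 3 libraries. Just outside it were Kcna3, which reached that level in 2 libraries, and Hcn3, Scn8a, Kcnh3 and Kcns1, which reached it in 1 library each. By role, the members were 23 voltage-gated potassium channel alpha subunits, 12 potassium channel accessory subunits, 10 inward rectifiers, 6 two-pore-domain potassium channels and 7 potassium channels opened by calcium or sodium. The remaining members were 6 sodium channel alpha subunits, 4 sodium channel beta subunits, 3 pacemaker channels and 2 antisense transcripts, Kcnq1ot1 and Kcnd3os.

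RNA came from left ventricles of C57BL/6 mice in 6 groups of 3 hearts. Ischemia-reperfusion (IR) was a ligation of the left anterior descending coronary artery for 45 min followed by 24 h of reperfusion, and sham mice had the chest opened without the ligation. Both operations were done in Sesn2-KO mice (Sesn2-/-, 3 to 4 months old), which lack the stress-inducible protein Sestrin2, in aged wild-type (WT) mice of 24 to 26 months, and in young WT mice of 3 to 4 months. Aged WT and young WT mice came from different suppliers and Sesn2-KO mice from the submitters' own colony, so age or genotype and the source of the mice cannot be told apart. Sesn2 itself averaged 0.231 ± 0.139 CPM in Sesn2-KO IR hearts and 0.173 ± 0.187 CPM in Sesn2-KO sham hearts (SD, n = 3 each), against group means of 3.66 to 3.91 CPM in the 4 WT groups.

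Heart muscle cells fire an action potential when sodium channels open, and potassium channels of several families bring the membrane back to rest. In the mouse ventricle repolarization is fast and rests largely on the transient outward current, carried by the alpha subunits Kcnd2 and Kcnd3 with the accessory subunit Kcnip2, and on delayed rectifiers such as Kcna5. Inward rectifiers hold the resting potential, and the pair of Kcnj11 or Kcnj8 with a sulfonylurea receptor forms the ATP-sensitive channel that opens when energy runs short. Pacemaker (Hcn) channels are known from the conduction system and are also present at low levels in working muscle.

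The promoters of 3 genes are shown because Kcnip2 and Hcn2 were lower after IR and Kcnn4 was higher. Each run is the 250 bases before the RefSeq transcription start on GRCm38.p6, read 5′ to 3′ on the gene's own strand. Capitals mark matches, on either strand, to 6 short motifs: the TATA box was searched as the letters TATAAA, the GC box as the letters GGGCGG, the site of GATA factors as the letters AGATAA, the MCAT element as the letters CATTCC, the AP-1 site as the letters TGANTCA and the site of STAT factors as the letters TTCNNNGAA.
Kcnip2, chr19:45816064-45816313, minus strand: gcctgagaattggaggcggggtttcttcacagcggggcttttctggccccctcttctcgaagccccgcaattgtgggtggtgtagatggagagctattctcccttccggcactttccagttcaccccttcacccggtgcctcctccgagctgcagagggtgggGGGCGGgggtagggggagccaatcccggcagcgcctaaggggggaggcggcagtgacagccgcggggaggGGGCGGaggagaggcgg
Hcn2, chr10:79716384-79716633, plus strand: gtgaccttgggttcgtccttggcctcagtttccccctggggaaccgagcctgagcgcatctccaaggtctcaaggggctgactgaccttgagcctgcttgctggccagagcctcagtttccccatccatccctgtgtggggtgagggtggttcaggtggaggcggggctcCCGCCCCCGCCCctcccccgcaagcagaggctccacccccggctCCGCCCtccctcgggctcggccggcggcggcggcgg
Kcnn4, chr7:24370013-24370262, plus strand: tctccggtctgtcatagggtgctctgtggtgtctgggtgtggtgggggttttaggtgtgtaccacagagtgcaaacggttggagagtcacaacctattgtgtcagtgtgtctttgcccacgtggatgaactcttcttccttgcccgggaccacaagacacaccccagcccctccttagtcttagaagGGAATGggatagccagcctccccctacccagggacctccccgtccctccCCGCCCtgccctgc
The Kcnip2 window held 2 GC boxes and the Hcn2 window 3, and their GC contents were 66.8% and 70.4%. The Kcnn4 window held 1 GC box and 1 MCAT motif at a GC content of 58.8%, and the median over all 32851 RefSeq windows was 52.4%. None of the matches overlapped another. RefSeq gave 70 windows for 51 of the 73 members. A GC box was found in 40% of these and in 32.7% of all windows, and the TATA letters in 0 of 70 and in 12.4% of all windows. MCAT letters were in 12.9% of the members' windows against 12.6% of all windows, GATA letters in 4.29% against 9.99%, AP-1 letters in 5.71% against 6.75% and STAT letters in 5.71% against 7.02%.

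Per kilobase of the longest annotated transcript, averaged over the 18 libraries, the highest member was Kcnk3, a two-pore-domain background channel, at 81.9 CPM per kb. Also high were Kcng2 (a silent voltage-gated subunit that modifies others) at 63.4, Kcnj11 (the pore of the ATP-sensitive channel) at 54.1 and Kcnip2 at 49.1 CPM per kb. Below these were Kcnj8 at 29.2, Kcnj5 at 27.1, Kcnh2 at 22.8 and Kcnj3 at 20.2 CPM per kb. Other known ventricular channel genes were lower, with Kcnq1 at 19.4, Kcnj2 at 12.2, Kcna5 at 8.51, Kcnd2 at 4.41 and Kcnd3 at 2.73 CPM per kb. Of the pacemaker genes, Hcn2 was at 6.92 and Hcn4 at 0.642 CPM per kb. Lengths were found for 72 of the 73 members; the other one, Scn2a1, averaged 0.678 CPM. The plot of level per length shows each library's value for 25 members.

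**Figure D1:**
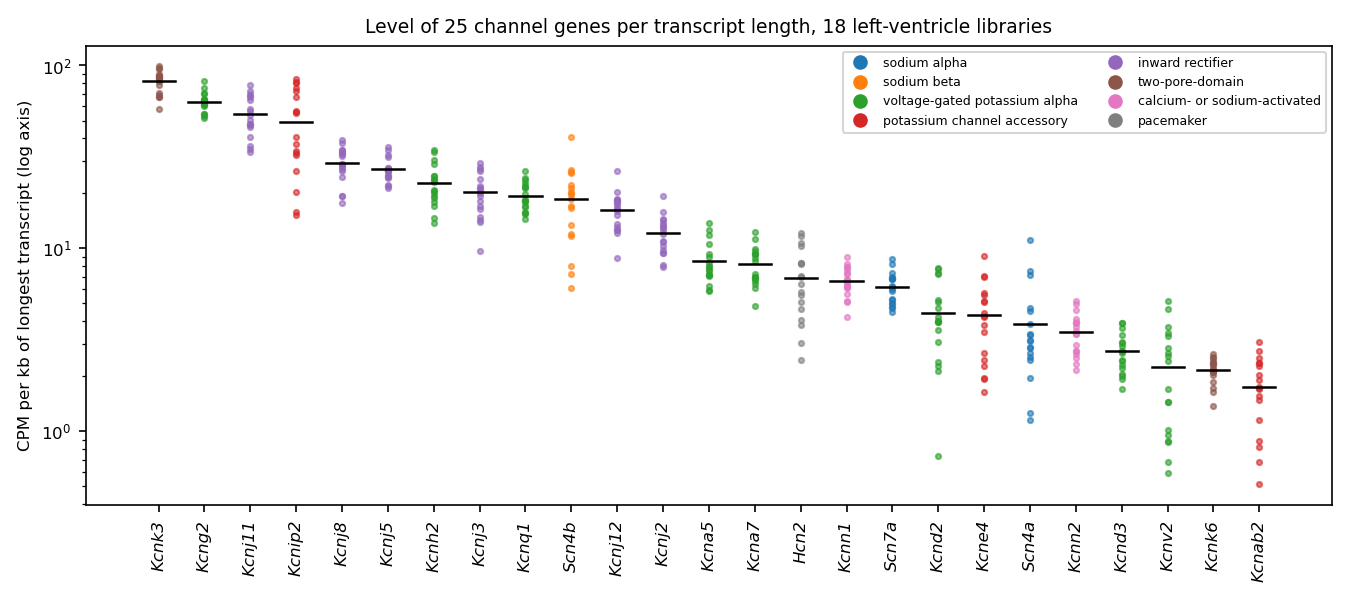
Level of 25 channel genes in CPM per kb of longest transcript (log axis), from the highest down, as 1 dot per library (18 libraries) with the mean as a black bar, coloured by channel role. Kcnk3 leads with a mean of 81.9 CPM per kb, and 3 other genes, Kcng2, Kcnj11 and Kcnip2, have means of 49.1 to 63.4 CPM per kb.

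Gene counts per library were 9404531 to 14458047. Summed over 7 genes, cardiomyocyte markers such as Myh6 and Tnnt2 were at 25110 to 38450 CPM in the 18 libraries, and 9 skeletal muscle markers summed to 3.66 to 10.2 CPM. The atrial genes Myl7 and Sln were at 252 and 104 CPM in Sesn2-KO IR heart 1, against 0 to 37.3 CPM and 0 to 11.0 CPM in the other 17 libraries. The list of 5 atrial markers, which includes Nppa, summed to 860.1 to 1691 CPM in Sesn2-KO IR hearts and 148 to 731 CPM in the other 5 groups. Nppa alone was at 996.1, 1684 and 772.2 CPM in Sesn2-KO IR hearts 1, 2 and 3. In heart 2, which had the highest sum, Myl7 and Sln were at 0.483 and 0.161 CPM. In 1 library of each group, long transcripts had relatively more counts (Sesn2-KO IR 3, Sesn2-KO sham 3, aged IR 3, aged sham 1, young IR 3 and young sham 1). In these 6 libraries the rank correlation across genes between transcript length and the deviation from the group mean was 0.31 to 0.48, and in the other 12 it was -0.43 to -0.01. These are descriptions across genes, which are not independent.

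All 13859 genes with enough counts were tested together, and 64 of the 73 members were among them. The 9 members below that filter were Kcnab3, Kcnc4, Kcne1l, Kcng4, Kcnh1, Kcnip4, Kcnj10, Kcnma1 and Kcnt1, with means of 0.309 to 0.474 CPM. A gene was called at a Benjamini-Hochberg adjusted p below 0.05 in edgeR's quasi-likelihood test, and values after ± are SDs for CPM (n = 3 hearts) and standard errors for log2 fold changes. In young WT hearts, IR changed 7 members, 3 higher and 4 lower, where 6.07% of all tested genes were called, 4.17% higher and 1.9% lower. In aged WT hearts it changed 9 members, 3 higher and 6 lower, beside 7.61% of all genes, 5.36% higher and 2.24% lower. In Sesn2-KO hearts no member was called, and neither was any other gene (0%). The smallest adjusted p there was 0.197, 18 members and 2037 genes had an unadjusted p below 0.05, and DESeq2 called 1 member, Kcnj11. The median log2 fold change of the tested members was -0.32 in Sesn2-KO, -0.36 in aged WT and -0.27 in young WT hearts, and the medians of all tested genes lay between -0.0036 and 0.0058. Under the alternative settings the members' median was negative in each of these 3 comparisons, between -0.45 and -0.14.

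Averaged over the 3 backgrounds, IR against sham changed 27 of the 64 tested members (42.2%), 7 higher and 20 lower, where 26.7% of all genes were called, 15.8% higher and 10.9% lower. With each library left out in turn there were 22 to 31 calls in the averaged comparison, 3 to 9 in aged WT and 2 to 10 in young WT hearts. Without the 6 length-tilted libraries, which leaves 2 hearts per group, there were 13, 0 and 0. Of those 13, 12 were among the 27, including Kcnj11, Kcne4, Kcnn2, Kcnv2, Kcne1, Hcn2, Kcnab2, Kcnip3, Kcnh2, Kcnd3 and Scn4a, and the other was Hcn4. All 27 had the same sign of fold change in Sesn2-KO, aged WT and young WT hearts. In Sesn2-KO hearts, IR and sham libraries did not overlap for 5 members higher and 12 lower (10% and 7.65% of all genes), in aged hearts for 6 and 15 (16.5% and 12.4%) and in young hearts for 4 and 17 (12.6% and 10.6%). Of the 64 tested members, 3 higher and 4 lower had no overlap of IR and sham in any of the 3 backgrounds, beside 3.35% of all tested genes higher and 1.49% lower. Kcne4, Kcnn4 and Kcnk6 were higher, and Kcnj11, Kcnn2, Kcnv2 and Kcne1 were lower. All 7 were among the 27, which were picked by their averaged IR effect. Since these are bulk samples, fewer cells of a type and less RNA per cell cannot be told apart. Summed cardiomyocyte markers were 25110 to 29730 CPM in Sesn2-KO IR hearts against 30270 to 31240 CPM in Sesn2-KO sham hearts, 28940 to 34380 against 36320 to 37740 CPM in aged hearts, and 28520 to 34170 against 36800 to 38450 CPM in young hearts. None of the 7 markers was at 0 in any library. Of these 7, Myh6 (log2 fold change -0.50) and Pln (-0.29) were called lower in the averaged comparison, and their median was -0.15. Their part in the lower channel RNAs was not tested. The forest plot gives 25 of the genes by background.

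**Figure D2:**
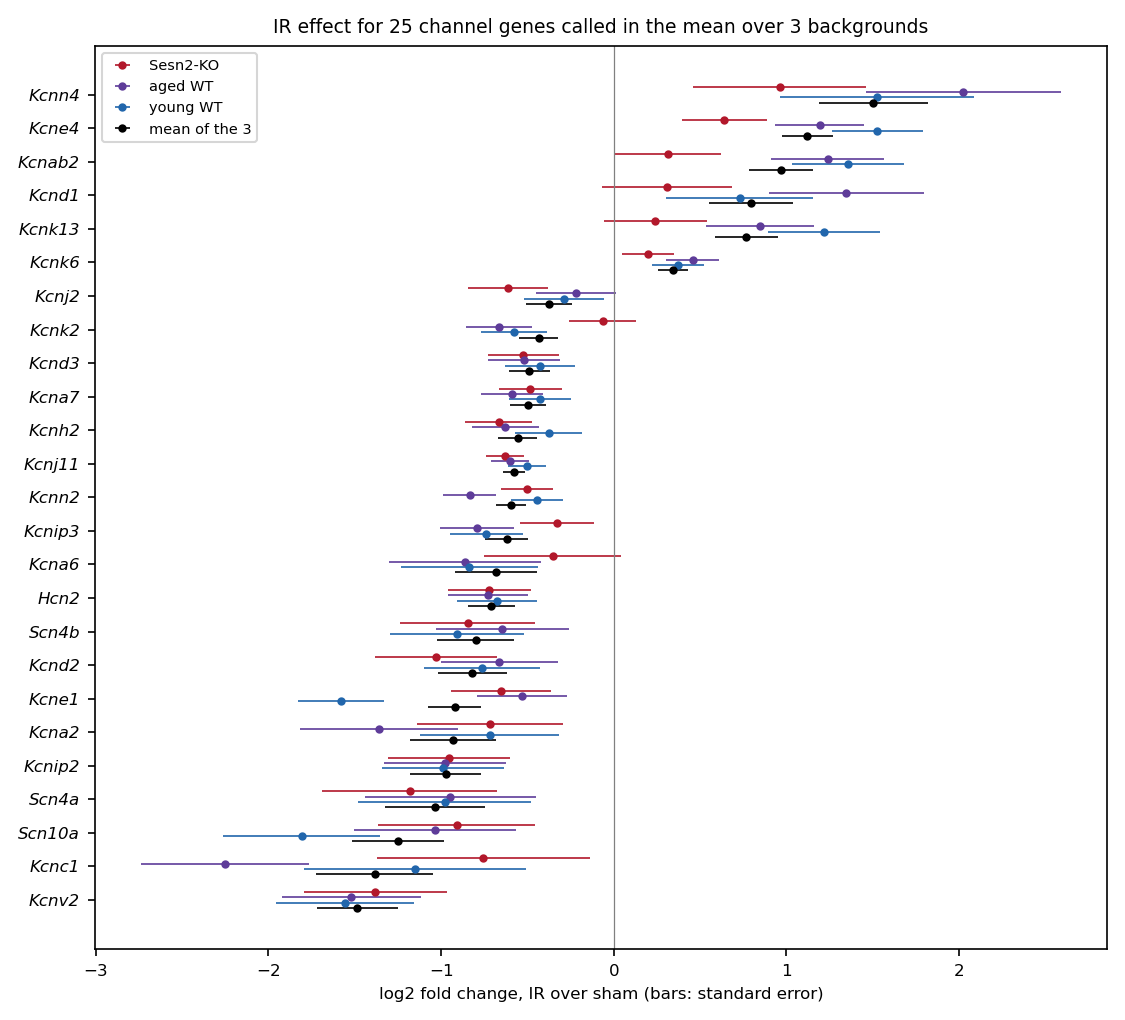
Log2 fold change of IR over sham (x axis, bars are standard errors) for 25 of the 27 channel genes called in the mean over 3 backgrounds, shown for Sesn2-KO, aged WT and young WT hearts and for the mean. Kcne4, Kcnn4, Kcnab2, Kcnd1, Kcnk13 and Kcnk6 lie to the right of 0 in the mean and the other genes to the left.

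Of the 9 inward rectifiers tested, 2 were called in the averaged comparison, both lower, and 7 were not. In that comparison 26.7% of all genes were called, 15.8% higher and 10.9% lower, and these shares also stand beside the class counts below. Kcnj11 (chromosome 7, 46093953 to 46100764, GRCm38) had 105, 109.7 and 114 CPM in Sesn2-KO IR hearts against 177, 149.7 and 181 CPM in Sesn2-KO sham hearts. In aged hearts it had 146, 159 and 149 CPM after IR against 246, 228 and 214 CPM after sham. In young hearts it had 169, 151 and 127 CPM after IR against 219, 202 and 212 CPM after sham. Every IR library was below every sham library of its own background. The log2 fold change was -0.63 ± 0.11 in Sesn2-KO (adjusted p = 0.197), -0.60 ± 0.11 in aged WT (adjusted p = 0.00467) and -0.50 ± 0.11 in young WT hearts (adjusted p = 0.0138). Averaged, it was -0.58 ± 0.06 (adjusted p = 2.06e-05), the smallest p of any member. The young WT call was lost without young sham heart 1 or 3 or young IR heart 3, with adjusted p-values up to 0.0803, while the aged call held without any 1 library.

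Kcnj2, which sets the resting potential in ventricular muscle, was the other one called, at -0.37 ± 0.13 (adjusted p = 0.0488). It averaged 52.9 ± 8.55 CPM in Sesn2-KO IR against 80.9 ± 23.3 CPM in Sesn2-KO sham hearts, 58.7 ± 12.8 against 68.2 ± 3.16 CPM in aged hearts and 61.3 ± 22.1 against 74.8 ± 4.19 CPM in young hearts. Its groups overlapped in aged and young hearts, and the call was lost without any 1 of 14 of the 18 libraries. Kcnj8, the ATP-sensitive pore of vascular muscle, had -0.21 ± 0.12, Kcnj12 -0.23 ± 0.15, and the subunits of the acetylcholine-gated channel, Kcnj3 and Kcnj5, -0.40 ± 0.16 and -0.23 ± 0.09 (adjusted p of 0.0724 to 0.281 over the 4 genes). Kcnj3 was at 112, 50.7 and 72.3 CPM in Sesn2-KO IR hearts 1, 2 and 3, and Kcnj5 at 99.6, 102 and 124 CPM. Heart 1, the one with the high Myl7 and Sln, had the highest Kcnj3 and the lowest Kcnj5 of these hearts. A link to the atrial genes was not tested.

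Of the transient outward current genes, Kcnip2, Kcnd2 and Kcnd3 were called lower in the averaged comparison. Kcnip2, the accessory subunit that brings the alpha subunits to the membrane, had 104, 47.5 and 49.4 CPM in Sesn2-KO IR against 116, 171 and 102 CPM in Sesn2-KO sham hearts. It had 106, 175 and 82.4 CPM after IR against 249.7, 211 and 254 CPM after sham in aged hearts, and 173, 126 and 63.6 against 262, 233 and 226 CPM in young hearts. The IR range lay below the sham range in aged and young hearts, and the highest Sesn2-KO IR heart (the one with the high Myl7 and Sln) was above the lowest Sesn2-KO sham heart. The averaged fold change was -0.97 ± 0.20 (adjusted p = 0.00257), and no single background passed (adjusted p of 0.103 to 0.243). Without the 6 length-tilted libraries its adjusted p was 0.0504.

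Kcnd2, the alpha subunit that carries the fast part of this current in the mouse ventricle, averaged 9.300 ± 4.79 CPM in Sesn2-KO IR against 18.97 ± 7.05 CPM in Sesn2-KO sham hearts, 18.3 ± 2.38 against 28.9 ± 9.76 CPM in aged hearts and 22.6 ± 3.81 against 38.3 ± 1.56 CPM in young hearts. Its averaged fold change was -0.82 ± 0.20 (adjusted p = 0.00683). Kcnd3, its close relative, had -0.49 ± 0.12 (adjusted p = 0.00669). Kcnd3 shares 165 exon bases with the antisense gene Kcnd3os, and the strand setting of the counting is not given in the sources used here, so reads of that stretch are uncertain. Kcnd1, another alpha subunit of this family with little RNA here, was higher at 0.80 ± 0.24 (adjusted p = 0.0235). It averaged 2.23 ± 0.383 CPM in Sesn2-KO IR against 1.79 ± 0.908 CPM in Sesn2-KO sham hearts, 1.48 ± 0.667 against 0.5899 ± 0.146 CPM in aged hearts and 1.42 ± 0.521 against 0.8497 ± 0.129 CPM in young hearts. That call was lost without any of 3 single libraries.

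Of the 20 voltage-gated alpha subunits tested, 9 were called lower, 1 higher and 10 not called in the averaged comparison. The lowest p was that of Kcnv2, a silent subunit that modifies other voltage-gated subunits. Kcnv2 had 4.51, 3.46 and 5.17 CPM in Sesn2-KO IR hearts against 13.2, 7.38 and 13.7 CPM in Sesn2-KO sham hearts. In aged hearts the values were 4.47, 7.39 and 8.66 CPM after IR against 26.3, 14.6 and 17.5 CPM after sham, and in young hearts 12.4, 4.86 and 3.01 against 23.9, 18.95 and 16.9 CPM. No background had overlapping groups. Fold changes were -1.38 ± 0.42, -1.52 ± 0.40 and -1.56 ± 0.40 in Sesn2-KO, aged WT and young WT hearts, with adjusted p-values of 0.203, 0.0307 and 0.0304, and the average was -1.49 ± 0.23 (adjusted p = 0.000356). The young and aged calls were each lost without any of 5 single libraries.

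Kcnh2, the pore of the rapid delayed rectifier, averaged 68.9 ± 15.3 CPM in Sesn2-KO IR against 109 ± 29.4 CPM in Sesn2-KO sham hearts, 76.5 ± 4.71 against 118 ± 23.2 CPM in aged hearts and 89.3 ± 10.1 against 116 ± 15.97 CPM in young hearts. Its averaged fold change was -0.56 ± 0.11 (adjusted p = 0.00193), and its call held without any 1 library. Kcnc1, a fast-gating subunit best known from neurons, was lower at -1.39 ± 0.34 (adjusted p = 0.00698). Its fold changes were -0.76 in Sesn2-KO, -2.25 in aged WT and -1.15 in young WT hearts. IR and sham were separate in aged hearts only, and the Sesn2-KO and young values rest on 2 to 23 counts per library. Kcnq1, the pore of the slow delayed rectifier, was not called, at -0.11 ± 0.11 (adjusted p = 0.489). Neither were Kcna4 at 0.17 ± 0.28, Kcna5 at 0.03 ± 0.16 and Kcng2 at 0.06 ± 0.07 (adjusted p of 0.592 to 0.917 over the 3 genes). Also lower were Kcna2 (-0.93 ± 0.25), Kcna6 (-0.68 ± 0.24) and Kcna7 (-0.50 ± 0.10), with adjusted p-values of 0.00242 to 0.0431, and the Kcna6 call was lost without any 1 of 12 libraries. These 3, together with Kcnd1, Kcnk6 and Scn4a, are named from their values rather than by the naming rule.

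Among the 9 accessory subunits tested, 2 were called higher and 3 lower in the averaged comparison. Kcne1, the partner of Kcnq1 in the slow delayed rectifier, had 1.303, 1.29 and 1.42 CPM in Sesn2-KO IR hearts against 3.05, 1.71 and 1.56 CPM in Sesn2-KO sham hearts. In aged hearts it had 2.65, 2.35 and 3.18 CPM after IR against 4.46, 3.91 and 3.500 CPM after sham, and in young hearts 2.65, 4.26 and 2.54 against 8.25, 10.03 and 10.2 CPM. Young sham hearts were the highest of the 6 groups, and no IR library reached a sham library of its own background. The fold change was -1.58 ± 0.25 in young WT hearts (adjusted p = 0.00189), and it was not called in Sesn2-KO (-0.65 ± 0.29, adjusted p = 0.308) or aged WT hearts (-0.53 ± 0.26, adjusted p = 0.226). The average was -0.92 ± 0.15 (adjusted p = 0.000516).

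Kcne4, a partner that inhibits Kcnq1 channels when the 2 are expressed together in cultured cells, went the other way. It had 18.4, 18.7 and 14.7 CPM in Sesn2-KO IR hearts against 11.3, 10.1 and 11.8 CPM in Sesn2-KO sham hearts. Aged hearts had 24.1, 11.4 and 9.28 CPM after IR against 6.06, 7.13 and 6.53 CPM after sham, and young hearts 13.6, 13.8 and 15.1 against 4.37, 5.21 and 5.15 CPM. Each IR library was above each sham library of its background, and aged IR heart 1 stood above all others. Fold changes were 0.64 ± 0.25 in Sesn2-KO (adjusted p = 0.254), 1.19 ± 0.26 in aged WT (adjusted p = 0.0121) and 1.53 ± 0.26 in young WT hearts (adjusted p = 0.003396). Averaged, Kcne4 was at 1.12 ± 0.15 (adjusted p = 8.58e-05). The aged call was lost without aged sham heart 1 (adjusted p = 0.0731).

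Kcnab2, a beta subunit of voltage-gated potassium channels that occurs in many cell types, averaged 9.003 ± 0.977 CPM in Sesn2-KO IR against 7.26 ± 1.51 CPM in Sesn2-KO sham hearts, 8.39 ± 2.15 against 3.55 ± 0.9302 CPM in aged hearts and 9.36 ± 2.69 against 3.69 ± 1.94 CPM in young hearts. It was higher in aged WT (1.24 ± 0.33, adjusted p = 0.03101), in young WT (1.36 ± 0.33, adjusted p = 0.0225) and on average (0.97 ± 0.19, adjusted p = 0.00142). Either single-background call was lost without any of 4 single libraries. Kcnip3, a calcium-binding partner of Kcnd channels that also acts as a repressor of transcription, was lower in aged WT (-0.79 ± 0.21, adjusted p = 0.0332) and on average (-0.62 ± 0.12, adjusted p = 0.00181). Without any of 5 single libraries the aged call was lost. The dot plots show 6 of the genes described so far in each library.

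**Figure D3:**
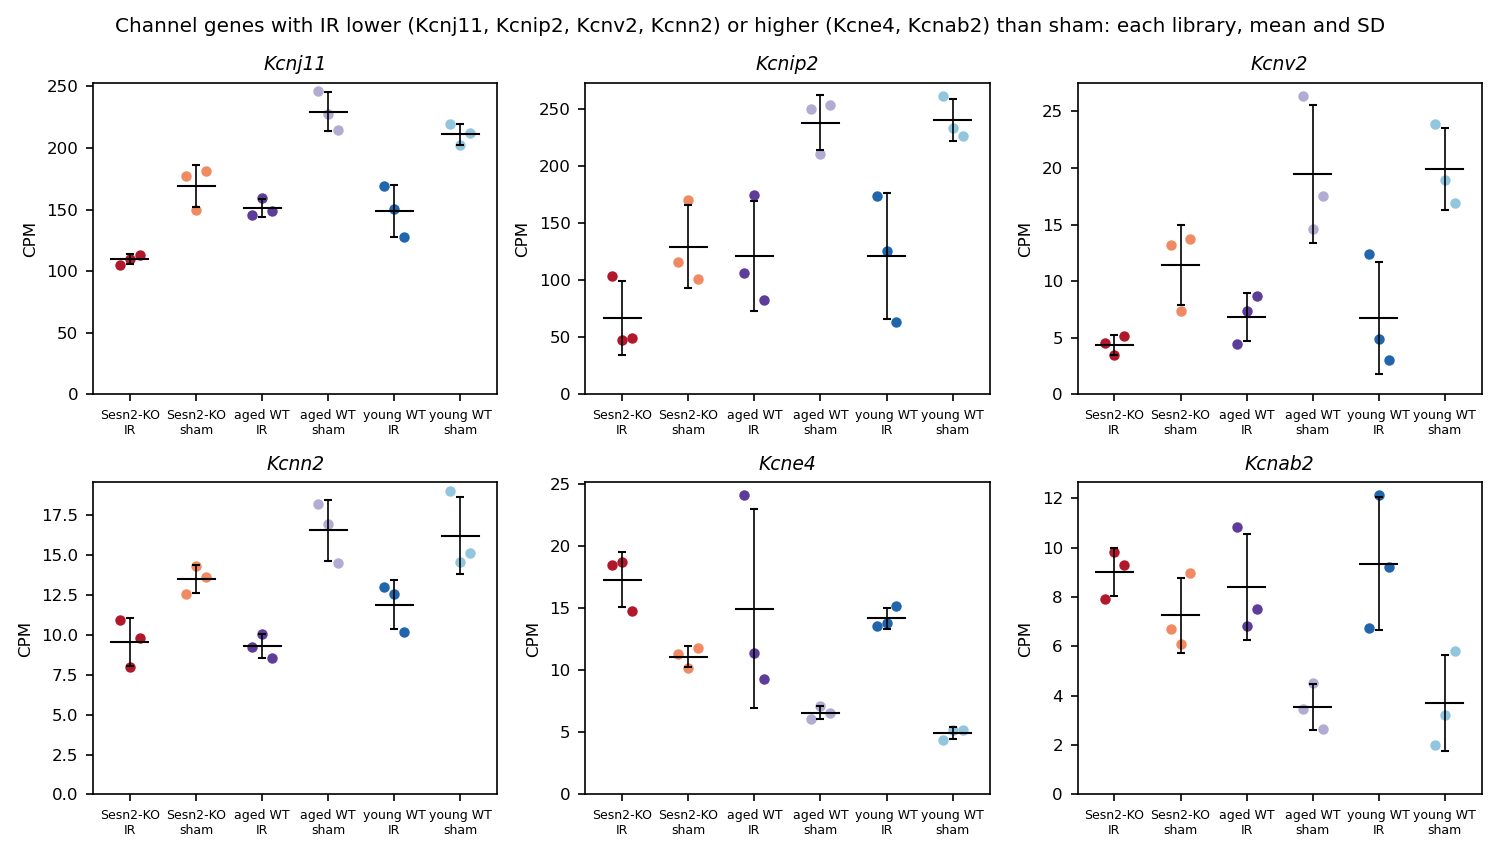
CPM of Kcnj11, Kcnip2, Kcnv2, Kcnn2, Kcne4 and Kcnab2 (y axis from 0) in each of the 18 libraries, with the mean and SD of each group of 3; IR groups stand left of their sham groups. Kcnj11, Kcnv2 and Kcnn2 have no overlap between IR and sham in any background, with IR lower, and Kcne4 has none with IR higher.

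Of the 5 calcium- or sodium-activated channels tested, Kcnn2 was called lower and Kcnn4 higher in the averaged comparison. Kcnn2, a small-conductance calcium-activated channel of heart muscle, had 10.9, 7.96 and 9.77 CPM in Sesn2-KO IR hearts against 12.6, 14.3 and 13.6 CPM in Sesn2-KO sham hearts. In aged hearts it had 9.25, 10.1 and 8.57 CPM after IR against 18.2, 16.97 and 14.5 CPM after sham, and in young hearts 12.97, 12.6 and 10.2 against 18.99, 14.5 and 15.1 CPM. IR lay below sham in each background. The fold change was -0.83 ± 0.15 in aged WT hearts (adjusted p = 0.00474) and -0.59 ± 0.09 on average (adjusted p = 0.000225), and both calls held without any 1 library. Kcnn2 shares 284 exon bases with the opposite-strand gene A330093E20Rik.

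Kcnn4, an intermediate-conductance relative known from blood and immune cells, had 4.01, 5.07 and 2.62 CPM in Sesn2-KO IR hearts against 2.25, 1.42 and 2.298 CPM in Sesn2-KO sham hearts. It had 4.24, 2.13 and 3.003 CPM after IR against 0.487, 1.65 and 0.0946 CPM after sham in aged hearts, and 1.195, 3.59 and 2.54 against 0.693, 1.03 and 0.831 CPM in young hearts. These values rest on 1 to 63 counts per library. IR lay above sham in each background. The fold change was 2.03 ± 0.57 in aged WT hearts (adjusted p = 0.0386) and 1.5 ± 0.31 on average (adjusted p = 0.00253). Leaving out any 1 of 4 libraries removed the aged call.

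Among the 6 two-pore-domain channels, Kcnk13 and Kcnk6 were called higher and Kcnk2 lower on average. Kcnk13, a channel known from microglia, averaged 3.78 ± 0.324 CPM in Sesn2-KO IR against 3.200 ± 0.622 CPM in Sesn2-KO sham hearts, 3.66 ± 0.939 against 2.05 ± 0.295 CPM in aged hearts and 3.296 ± 1.46 against 1.42 ± 0.354 CPM in young hearts. It was called in young WT hearts (1.22 ± 0.32, adjusted p = 0.0364, lost without any of 5 single libraries) and on average (0.77 ± 0.18, adjusted p = 0.00551). Kcnk2, a stretch- and lipid-sensitive background channel, was lower in aged WT hearts (-0.66 ± 0.19, adjusted p = 0.0455, likewise lost without any of 5 single libraries) and on average (-0.44 ± 0.11, adjusted p = 0.00913). Kcnk6, a weakly rectifying relative, was higher on average at 0.34 ± 0.09 (adjusted p = 0.00962). Kcnk3, the member with the highest level per length, was not called (-0.22 ± 0.09, adjusted p = 0.0941).

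The neutrophil markers S100a8, S100a9 and Csf3r were higher after IR in aged and young WT hearts. In Sesn2-KO hearts their sums overlapped between IR and sham, and 0 of the 3 markers were called. They summed to 65.3 to 126 CPM in Sesn2-KO IR against 26.2 to 73.6 CPM in Sesn2-KO sham hearts, 78.9 to 140.1 against 4.25 to 15.2 CPM in aged hearts and 46.8 to 97.8 against 4.57 to 6.32 CPM in young hearts, and none of the 3 was at 0. All 3 were called higher in young WT, in aged WT and on average. The macrophage markers Adgre1, Cd68 and Csf1r summed to 172.7 to 191 against 164 to 170.2 CPM in Sesn2-KO hearts, 140.4 to 211 against 122.6 to 180.2 CPM in aged hearts and 114 to 183 against 109.8 to 158 CPM in young hearts, IR before sham, with none at 0. Of the 3 macrophage markers, 1 was called higher in young WT hearts and on average, and 0 in aged WT and in Sesn2-KO hearts. The part of the neutrophil and macrophage markers in the higher Kcnn4, Kcnk13 and Kcnab2 was not tested.

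Of the 6 sodium channel alpha subunits, Scn10a and Scn4a were called lower on average and none higher. In each of the 6 groups the length-tilted library had the highest Hcn4 and the highest Kcnj5 value. These are among the 5 of 64 tested members (7.81%) of which that held, beside 9.87% of all tested genes. The plot against the length slope shows this for Scn4a, Hcn4 and Kcnj5.

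**Figure D4:**
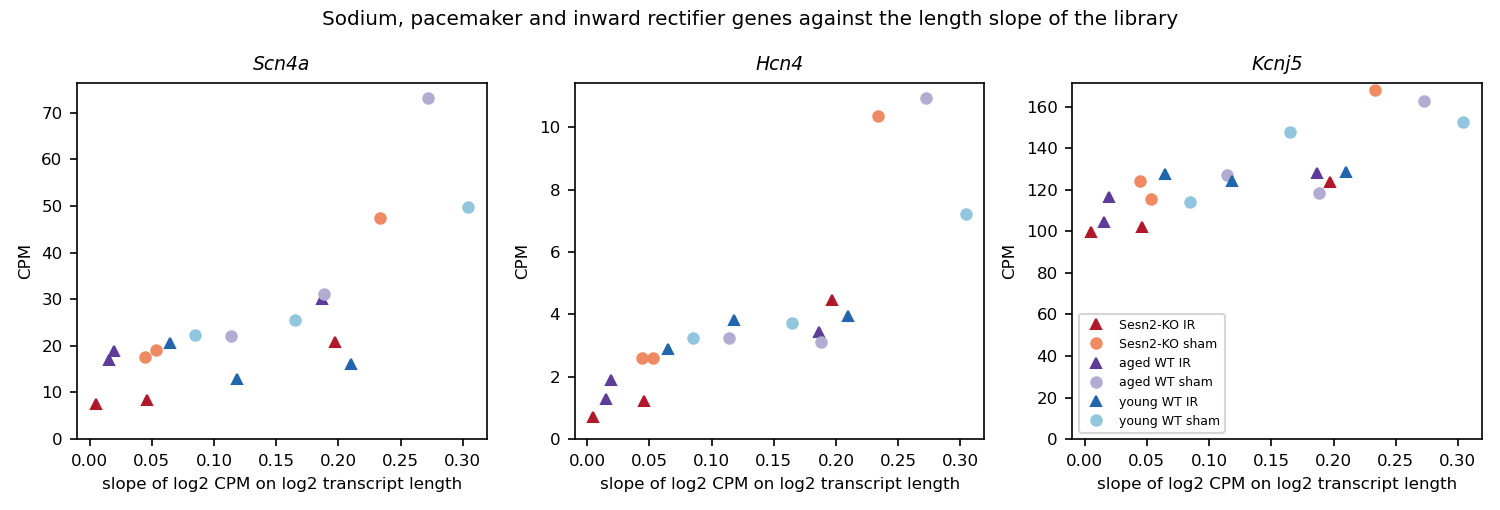
CPM of Scn4a, Hcn4 and Kcnj5 (y axis from 0) against the library's slope of log2 CPM on log2 transcript length (x axis), 1 symbol per library, triangles for IR and circles for sham. Hcn4 and Kcnj5 are highest in the library with the steepest slope of each group, and Scn4a in 5 of 6 groups.

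Scn10a, a channel of sensory and intracardiac neurons that is also found in heart muscle, averaged 1.69 ± 0.906 CPM in Sesn2-KO IR against 3.195 ± 0.734 CPM in Sesn2-KO sham hearts, 1.48 ± 0.359 against 3.07 ± 1.03 CPM in aged hearts and 1.52 ± 0.742 against 5.39 ± 2.94 CPM in young hearts. It was called in young WT hearts (-1.81 ± 0.45, adjusted p = 0.0282, lost without young sham heart 3 or young IR heart 1 or 3) and on average (-1.25 ± 0.27, adjusted p = 0.00277). Scn4a, the skeletal muscle sodium channel, was lower on average at -1.04 ± 0.29 (adjusted p = 0.0154). Of the 4 beta subunits, Scn4b was lower. Scn4b had 66.6, 39.98 and 58.1 CPM in Sesn2-KO IR against 85.5, 101 and 110.1 CPM in Sesn2-KO sham hearts. It had 93.3, 128 and 59.9 CPM after IR against 203, 107 and 129.7 CPM after sham in aged hearts, and 101, 36.2 and 30.3 against 133, 83.2 and 97.9 CPM in young hearts. The groups were separate in Sesn2-KO hearts and overlapped in the others. Its averaged fold change was -0.80 ± 0.22 (adjusted p = 0.0156).

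Young IR heart 1 and aged IR heart 2 stood nearer to the sham hearts than the other IR hearts of their groups for some of these genes and further from them for others. Young IR heart 1 had the highest Kcnip2, Kcnv2, Kcnj2, Kcnj3 and Scn4b of its group, and aged IR heart 2 the highest Kcnip2, Kcnj2, Kcnj3 and Scn4b of its group. Against this, young IR heart 1 had the lowest Hcn2 and Scn10a of its group, and aged IR heart 2 the lowest Hcn2, Kcne1 and Scn10a, with sham hearts higher for each. Nppa, the natriuretic peptide gene that is raised in stressed ventricle, was at 142.8 CPM in young IR heart 1 and 172.8 CPM in aged IR heart 2, against 560.2 to 699 CPM in the other 4 WT IR hearts and 124 to 272 CPM in the 6 WT sham hearts. Their neutrophil marker sums, at 50.4 and 78.9 CPM, lay above the 4.25 to 15.2 CPM of the 6 WT sham hearts. In the other 4 WT IR hearts these sums were 46.8 to 140.1 CPM. These 2 hearts were singled out after the values were seen, and they stayed in all results above except where 1 library was left out.

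Hcn2, the pacemaker channel with the most RNA here, had 9.72, 7.88 and 12.96 CPM in Sesn2-KO IR hearts against 12.1, 16.2 and 22.2 CPM in Sesn2-KO sham hearts. It had 22.4, 14.99 and 17.8 CPM after IR against 38.6, 26.7 and 26.5 CPM after sham in aged hearts, and 18.4, 26.4 and 20.5 against 32.9, 37.6 and 34.1 CPM in young hearts. The groups were separate in aged and young hearts, while the highest Sesn2-KO IR heart passed the lowest Sesn2-KO sham heart. The averaged fold change was -0.71 ± 0.14 (adjusted p = 0.00138). Hcn4, the main pacemaker channel of the sinus node, was not called at -1.02 ± 0.39 (adjusted p = 0.0655), and without the 6 length-tilted libraries it was called. Conduction-system markers summed to 23.7 to 27.96 against 28.8 to 30.2 CPM in Sesn2-KO hearts, 16.1 to 26.7 against 23.7 to 30.5 CPM in aged hearts and 16.0 to 30.7 against 24.8 to 31.7 CPM in young hearts, IR before sham. At most 1 of the 5 was at 0 in a library. Cacna2d2 (-0.98) and Cntn2 (-0.68) of this list were called lower on average, and their part in the lower Hcn2 was not tested.

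Of 36 other genes of cardiac excitability, 35 were tested. On average over the backgrounds 11 were called lower and 1 higher, beside 10.9% of all genes lower and 15.8% higher. Their median log2 fold change was -0.13. Both sulfonylurea receptors that pair with Kcnj11 and Kcnj8 were lower: Abcc8 had -0.77 ± 0.07 (adjusted p = 2.97e-06) and Abcc9 had -0.69 ± 0.11 (adjusted p = 0.000317). Both also passed in aged WT (-0.98 ± 0.12 and -0.84 ± 0.19) and young WT hearts (-0.78 ± 0.12 and -0.71 ± 0.18). Abcc8 was at 21.2 to 27.3 CPM in Sesn2-KO IR against 31.7 to 40.9 CPM in Sesn2-KO sham hearts, 24.1 to 29.6 against 51.3 to 56.7 CPM in aged hearts and 28.3 to 29.9 against 48.0 to 52.8 CPM in young hearts, with no overlap in any background. Cav3, the muscle caveolin, was the gene called higher (0.46 ± 0.08, adjusted p = 0.000992), and the calcium channel gene Cacna1g was lower at -1.0 ± 0.19 (adjusted p = 0.00118). In young WT hearts alone, 2 of the 35 were called, both lower. In aged WT hearts 1 was called higher and 3 lower, and in Sesn2-KO hearts none was called.

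Whether the response to IR differed between backgrounds was tested directly. No member was called for the difference of aged minus young WT responses, where 0% of all genes were called, 2 members and 152 genes had an unadjusted p below 0.05, and DESeq2 called no member. None was called for Sesn2-KO minus young WT either, where 0.0577% of all genes were called. There, 6 members and 769 genes had an unadjusted p below 0.05, and DESeq2 called no member. The member with the smallest p in the aged comparison was Kcne1, whose difference was 1.05 ± 0.36 (adjusted p = 0.9998), and in the Sesn2-KO comparison Kcne3, another accessory subunit, at 2.68 ± 1.08 (adjusted p = 0.837). For Kcnj11 the differences were -0.10 ± 0.15 for aged and -0.13 ± 0.15 for Sesn2-KO hearts. For Kcnip2 they were 0.01 ± 0.49 and 0.04 ± 0.50.

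Age was compared within sham and within IR. In sham hearts, 2 members were called, both higher in aged than in young WT hearts, where 0.152% of all genes were called, 0.144% higher and 0.00722% lower. Kcnk1, a weakly rectifying background channel, had 7.100, 3.61 and 2.93 CPM in aged sham hearts against 0.208, 0.711 and 0.332 CPM in young sham hearts. The young values rest on 3 to 9 counts per library and the aged values on 31 to 102. Its fold change was 3.45 ± 0.62 (adjusted p = 0.0308). Kcnc1 had 4.803, 7.36 and 5.77 CPM in aged sham hearts against 1.39, 0.395 and 0.831 CPM in young sham hearts, a fold change of 2.75 ± 0.50 (adjusted p = 0.0349). Neither gene's groups overlapped. The Kcnc1 call was lost without any 1 of the 6 libraries, and the Kcnk1 call without any 1 of 5 of them. The T cell markers Cd3d, Cd3e and Cd3g also had higher sums in aged than in young WT hearts. They summed to 1.81 to 3.98 CPM in aged sham against 0.277 to 0.665 CPM in young sham hearts and to 0.707 to 1.79 against 0.094 to 0.673 CPM in IR hearts. None of the 3 was at 0 in an aged library and at most 2 were in a young one, and neither of the 2 that could be tested was called. Their part in the higher Kcnk1 and Kcnc1 was not tested. In Sesn2-KO sham hearts, with T cell marker sums of 1.71 to 4.14 CPM, Kcnc1 averaged 0.830 ± 0.730 CPM, against 0.871 ± 0.497 CPM in young sham hearts. Kcnk1 averaged 8.39 ± 2.05 CPM in the same Sesn2-KO sham hearts.

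Kcne1 ran the other way without passing, at 4.46, 3.91 and 3.500 CPM in aged sham against 8.25, 10.03 and 10.2 CPM in young sham hearts (-1.26 ± 0.24, adjusted p = 0.0558). In IR hearts no member was called between aged and young WT mice, where 0.0649% of all genes were called. Here 9 members and 553 genes had an unadjusted p below 0.05, and DESeq2 called 1 member, Kcnk1. Kcnk1 had 3.18, 2.91 and 3.89 CPM in aged IR hearts against 1.71, 0.299 and 0.09397 CPM in young IR hearts. That is 2.23 ± 0.59 (adjusted p = 0.404). Kcnc1 after IR was at 1.59, 1.34 and 0.795 CPM in aged and 0.427, 0.374 and 0.376 CPM in young hearts. Aged sham hearts were the group with the most Kcnc1, and IR against sham in aged hearts gave -2.25 ± 0.49 (adjusted p = 0.0124, and 0.0529 without aged IR heart 3).

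Genotype was compared in the same way. In sham hearts, 6 members differed between Sesn2-KO and young WT mice, 3 higher and 3 lower, where 5.11% of all genes were called, 3.32% higher and 1.79% lower. Kcnk1 had 10.8, 7.23 and 7.19 CPM in Sesn2-KO sham hearts against the same young sham values of 0.208, 0.711 and 0.332 CPM. Its fold change was 4.32 ± 0.61 (adjusted p = 0.000769), and each Sesn2-KO heart was above each young one. Kcne1 had 3.05, 1.71 and 1.56 CPM in Sesn2-KO sham hearts against 8.25, 10.03 and 10.2 CPM in young sham hearts, a fold change of -2.16 ± 0.26 (adjusted p = 0.0001795) with no overlap. Both calls held without any 1 library.

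Hcn2 was lower at 16.9 ± 5.08 CPM in Sesn2-KO sham against 34.8 ± 2.46 CPM in young sham hearts (-1.05 ± 0.23, adjusted p = 0.0162), and Kcnk2 was lower at -0.69 ± 0.19 (adjusted p = 0.04702). Kcne4 was higher at 11.1 ± 0.843 CPM in Sesn2-KO sham against 4.91 ± 0.472 CPM in young sham hearts (1.17 ± 0.26, adjusted p = 0.0176), and Kcnk13 was higher at 1.17 ± 0.32 (adjusted p = 0.04702). These 4 calls were lost without any of 3 to 6 single libraries. This comparison and that of IR with sham in young WT hearts share the 3 young sham libraries. Their fold changes, Sesn2-KO sham and then young IR, were -2.16 ± 0.26 and -1.58 ± 0.25 for Kcne1, 1.17 ± 0.26 and 1.53 ± 0.26 for Kcne4, and 1.17 ± 0.32 and 1.22 ± 0.32 for Kcnk13. The neutrophil markers were 26.2 to 73.6 CPM in Sesn2-KO sham against 4.57 to 6.32 CPM in young sham hearts, all 3 called higher, and cardiomyocyte markers 30270 to 31240 against 36800 to 38450 CPM. The T cell markers summed to 1.71 to 4.14 CPM in Sesn2-KO sham against 0.277 to 0.665 CPM in young sham hearts, none at 0 in Sesn2-KO libraries and at most 1 at 0 in a young one, and both tested ones were called higher. The 4 endothelial markers summed to 631 to 811 against 958 to 1002 CPM, none at 0, and 1 was called lower. Of the 3 macrophage markers, at 164 to 170.2 against 109.8 to 158 CPM with none at 0, 1 was called higher. Their part in these differences was not tested. Of the 35 excitability genes, Abcc8 (-0.49 ± 0.11), Abcc9 (-0.72 ± 0.18) and Ank2 (-0.63 ± 0.16) were lower, with adjusted p-values of 0.0231 to 0.0365. Dpp6, an accessory subunit of Kcnd channels, was called higher (adjusted p = 0.0477) at 1.16, 0.0745 and 0.889 CPM in Sesn2-KO sham against 0, 0 and 0.0831 CPM in young sham hearts. The young values rest on 1 count, Sesn2-KO sham heart 2 lay below the highest young heart, and no fold is given.

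In IR hearts no member was called between Sesn2-KO and young WT mice, where 0.433% of all genes were called. Unadjusted, 11 members and 1758 genes were below 0.05. DESeq2 called 6 members (Kcnk1 and Scn3b higher, and Hcn2, Kcnd2, Kcne1 and Kcnj11 lower). Hcn2 had 9.72, 7.88 and 12.96 CPM in Sesn2-KO IR hearts against 18.4, 26.4 and 20.5 CPM in young IR hearts (-1.09 ± 0.24, adjusted p = 0.0628). Scn3b, a beta subunit, had 3.11, 4.43 and 3.61 CPM in Sesn2-KO IR against 1.62, 1.35 and 1.22 CPM in young IR hearts (1.41 ± 0.32, adjusted p = 0.0664). Neither gene's groups overlapped. Kcnj11 had -0.44 ± 0.11 (adjusted p = 0.0966) and Kcnd2 -1.28 ± 0.36 (adjusted p = 0.145). In these hearts the T cell markers summed to 1.2 to 4.91 CPM in Sesn2-KO IR against 0.094 to 0.673 CPM in young IR hearts, and 1 of the 2 tested was called higher; their part in these values was not tested.

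Kcnip4, a relative of Kcnip2 that lay just inside the level chosen and below the test's filter, is singled out after its values were seen. It had no count in the 6 young WT libraries, which allows up to 0.0847 CPM over the 3 young IR and up to 0.0763 CPM over the 3 young sham libraries (3 counts over the group). Sesn2-KO IR hearts had 2, 28 and 6 counts and Sesn2-KO sham hearts 17, 5 and 5, so 1 library held most of the counts of each group. Aged IR hearts had 7, 2 and 0 counts and aged sham hearts 4, 4 and 1. No test was made. These limits cover counting error only. Kcnip4 shares 168 exon bases with the opposite-strand gene 5730480H06Rik.

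**Figure D5:**
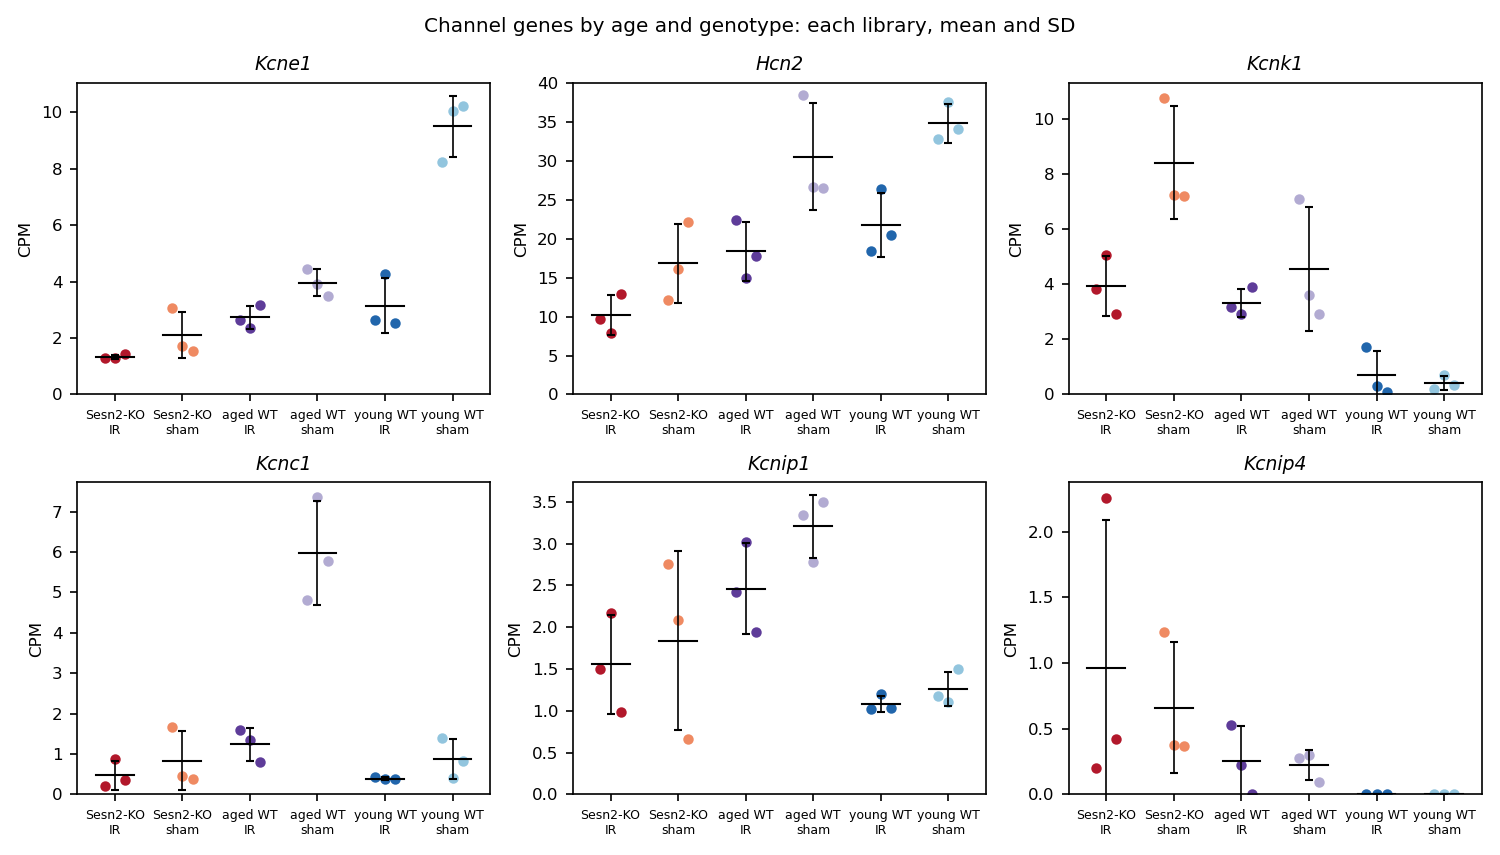
CPM of Kcne1, Hcn2, Kcnk1, Kcnc1, Kcnip1 and Kcnip4 (y axis from 0) in each of the 18 libraries, with the mean and SD of each group of 3. Young WT sham hearts have the highest Kcne1 (8.25 to 10.2 CPM), aged WT sham hearts the highest Kcnc1 (4.80 to 7.36 CPM), and the 6 young WT libraries have no Kcnip4.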

How the data were processed

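Left-ventricle RNA of 18 hearts was measured by RNA-seq, with groups taken from the sample titles. Per the labels' protocols, RNeasy-purified RNA went into a stranded mRNA library kit (TruSeq) and was sequenced from both ends on an Illumina NextSeq. The authors deposited a whole-number count per gene symbol for each heart, not normalized. The submitters' processing notes name the mouse build mm10 and the tools TopHat2, Bowtie2, SAMtools, HTSeq and FastQC. Their versions, the annotation and the strand option of the counting are not given in the sources used. Both summary lines, fragments in no gene (6.12% to 9.06%) and in more than 1 gene (0.63% to 0.76%), stayed out of library sizes and tests. The membership limit of 0.5 CPM used gene-count totals, while printed CPM values use TMM-scaled library sizes.

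Tests on the counts used edgeR 4.0.16 (R 4.3.3): filterByExpr kept 13859 genes, and 1 quasi-likelihood model with 6 group means and robust dispersion gave 10 contrasts, each with Benjamini-Hochberg adjustment over all genes tested. Fold changes are edgeR's estimates. The model was tested on simulated data. Alternatives were DESeq2 1.42.0, its size factors, other filters, a length covariate, a replicate block, the compared groups alone, and libraries left out. Gene positions and lengths came from GENCODE M21 on GRCm38, matched by symbol.

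The rule for named genes was the 8 members with the smallest p among those called in each comparison, the 10 with the highest CPM and a list of cardiac channel genes. Members, gene lists and the naming rule were chosen with earlier results of these data known. The labels call the hearts separate samples but tie none to a litter, surgery day or batch, so the p-values cover only how these hearts vary. No replicate pair was identical, with a chi-square per degree of freedom of 8.48 to 48.3. Depth was 9404531 to 14458047 gene counts, and a floor is 3 counts over a group. No molecular identifiers are named in the labels, so floors cover counting error only. Results for some members are not reported here by name; counts include them.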

Additional observations from a re-analysis of the deposited data

How the results depend on the processing

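Of 51 member calls, 51 held with DESeq2's Wald test, 51 with its size factors, 50 with the membership limit as filter, 49 with a length covariate and 47 with no filter; compared groups alone kept 12 of 24, and leaving out the 6 length-tilted libraries kept 15 of 51, with fewer hearts. No fold change reversed. Without those 6 libraries the members called were 0 in young WT, 0 in aged WT, 13 on average, 0 for aged against young sham and 3 for Sesn2-KO against young sham. A length covariate gave 11 in young WT IR, 10 for Sesn2-KO sham and 4 for Sesn2-KO IR against young. DESeq2 gave 14 in aged WT, 1 in Sesn2-KO, 1 for aged against young IR and 6 for Sesn2-KO against young IR, and the young groups alone gave 3; the cause was not tested. Leaving out 1 library gave 2 to 10 calls in young WT, 3 to 9 in aged WT, 0 to 0 in Sesn2-KO, 22 to 31 on average, 0 to 1 for aged against young in sham and in IR, 3 to 4 for Sesn2-KO against young sham, 0 to 1 for Sesn2-KO against young IR, and 0 to 0 for both response differences. Same-numbered libraries correlated at -0.39 to 0.72 in their deviations, so the numbers were not taken to pair hearts; a replicate block gave 7 calls in young WT, 11 in aged WT, 0 in Sesn2-KO, 27 on average, 2 and 0 for age in sham and IR, 6 and 0 for genotype in sham and IR and 0 for both differences, with only Kcnj2 lost. Counts of calls under alternative settings, here and above, stand without the share of all genes called under the same setting. They therefore do not compare the members with other genes. Members near 1 CPM rest on few counts per library, which limits what could be called.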

Other observations

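Of the members with little RNA that were not called, 4 were singled out after their values were seen. Kcns3, a silent voltage-gated subunit, averaged 1.47 ± 0.362 CPM in Sesn2-KO sham and 1.37 ± 0.157 CPM in aged sham hearts, against 0.345 ± 0.281 CPM in young sham hearts (SD, n = 3 each). Its log2 fold changes were 2.1 ± 0.69 for Sesn2-KO (edgeR adjusted p = 0.0949) and 1.99 ± 0.70 for aged hearts (edgeR adjusted p = 0.752), and both groups lay above the young one. Both comparisons share the 3 young sham libraries. Kcnj4, an inward rectifier, averaged 1.96 ± 0.761 CPM in aged sham against 0.5704 ± 0.286 CPM in young sham hearts (1.73 ± 0.49, edgeR adjusted p = 0.439) and 1.003 ± 0.384 against 0.351 ± 0.168 CPM in IR hearts. In Sesn2-KO sham hearts it had 0.7995, 0.224 and 1.04 CPM, which overlapped the 0.901, 0.395 and 0.416 CPM of young sham hearts. Kcnip1, another relative of Kcnip2, averaged 3.21 ± 0.379 CPM in aged sham against 1.26 ± 0.208 CPM in young sham hearts (1.34 ± 0.39, edgeR adjusted p = 0.445) and 2.46 ± 0.5399 against 1.09 ± 0.0972 CPM in IR hearts. In Sesn2-KO sham hearts it had 2.76, 2.09 and 0.667 CPM, which overlapped the 1.18, 1.11 and 1.496 CPM of young sham hearts. Neither Kcnj4 nor Kcnip1 had overlapping aged and young groups in sham or in IR. The share of all genes without overlap between these groups is not given here, so the separation is a description only.

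Kcna1, a voltage-gated alpha subunit, lay the other way, at 2.39 ± 0.682 CPM in aged sham against 4.76 ± 0.948 CPM in young sham hearts and 1.54 ± 0.385 against 2.85 ± 0.796 CPM in IR hearts, with no overlap in either. Its fold changes were -1.0 ± 0.43 and -0.90 ± 0.47, and neither was called. Sesn2-KO sham hearts, at 2.54, 3.58 and 2.37 CPM, also lay below the 3.67, 5.21 and 5.40 CPM of young sham hearts. So the lower Kcna1 in sham hearts was not particular to age, and both sham comparisons share the young sham libraries. The same limit on separate groups applies.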
